A study of Homo sapiens with 4 samples.

Results

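Mitochondrial transcription and RNA stability factors are the nuclear-encoded proteins that copy the mitochondrial genome into RNA and then keep, tail or degrade that RNA. The group examined here held 10 genes chosen by name: POLRMT, TFAM, TFB2M, TEFM, TFB1M, LRPPRC, SLIRP, MTPAP, PNPT1 and SUPV3L1. All 10 were found among the 48162 genes of the deposited table, and all 10 passed the filter on low values. Their RNA was measured by RNA-seq in the breast cancer line MDA-MB-231, in 2 libraries of cells treated with MGH-CP1 and 2 libraries of cells given vehicle control, all for 24 h. The libraries were made from poly(A)-selected RNA. MGH-CP1 is a small molecule that blocks the palmitoylation of the TEAD transcription factors; the sample labels give its dose as 10 µM, whereas the methods give 10 mM. The series holds a single cell line, dose and time, and nothing in the labels says whether libraries of a condition came from separate cultures. The p-values below therefore rest on the spread between these libraries only, which limma pools in part over genes.

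The mitochondrial genome is transcribed from both strands into long transcripts that are cut into mRNAs, rRNAs and tRNAs. POLRMT is the RNA polymerase, TFAM bends and packages the DNA at the promoters, TFB2M opens the promoter and TEFM keeps the polymerase going, while TFB1M methylates the ribosomal RNA of the small mitochondrial subunit. LRPPRC and SLIRP form a complex that stabilises mitochondrial mRNAs, and MTPAP adds their poly(A) tails. PNPT1 (polynucleotide phosphorylase) and the helicase SUPV3L1 form the degradosome, which removes mitochondrial RNA. The question put to the data was whether the RNA of these factors moves with that of the mitochondrially encoded genes, which is higher after MGH-CP1.

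Levels are given as FPKM (fragments per kilobase of gene length scaled to the library's total of fragments on genes), a relative scale on which less RNA of a gene and more RNA of all others cannot be told apart. The vehicle control libraries held 25455533 and 25508824 fragments and the MGH-CP1 libraries 17997221 and 17577930, so depth moved with the treatment and the MGH-CP1 values carried more counting error; its part in the results was not tested. The mesenchymal markers VIM (259 to 281 FPKM over the 4 libraries) and CD44 (198 to 221 FPKM) were abundant. So were AXL and CAV1, but with lower levels in treated cells: AXL had 274 and 293 FPKM under vehicle control and 149 and 187 FPKM after MGH-CP1, and CAV1 385 and 389 FPKM, then 272 and 278 FPKM. Of the epithelial markers, EPCAM lay between 12.4 and 16.4 FPKM with overlapping conditions, and CDH1 was low but higher in treated cells (0.363 and 0.289 FPKM, then 0.638 and 0.572 FPKM). ERBB2 lay between 24.7 and 28.4 FPKM and the fibroblast marker COL1A1 between 1.31 and 1.83 FPKM, both with the treated libraries above the controls. The part of these markers in the results was not tested. The hormone receptor genes ESR1 and PGR were near 0, with no more than 4 and 1 fragments per library, and so was the leukocyte marker PTPRC, with no more than 3.

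Short stretches of promoter sequence are shown first for some of the factors. Their promoters hold a short exact form of a site of the activators of mitochondrial biogenesis, NRF1 and the ETS factor GABP. The 250 bases before each gene's start were taken from RefSeq (GRCh38.p14), where all 10 genes had an entry, and searched on both strands. The searched letters were TGCGCA (the core of the NRF1 site, its own reverse complement) and CCGGAAG or CTTCCGG (the ETS site). Only these exact letters were searched, so a promoter without a match may still hold another form of either site. Each line gives 30 bases, 5′ to 3′ on the strand of the gene, with the matching letters in capitals.
POLRMT, NRF1 core, chr19:633539-633568, minus strand: ggcgcgggcgcaTGCGCAggcgcgggccgg
POLRMT, ETS site, chr19:633612-633641, minus strand: ctgggagtctaCTTCCGGctggggtttccc
TFB2M, NRF1 core, chr1:246566482-246566511, minus strand: ctccctcTGCGCAcccctcgcggctggccg
TFB2M, NRF1 core, chr1:246566262-246566291, minus strand: aaggctccgctgttcgcaTGCGCAggctct
TFB1M, ETS site, chr6:155314551-155314580, minus strand: cgcggtcatcgCTTCCGGtgggataggtct
SLIRP, ETS site, chr14:77708016-77708045, plus strand: taccctctgatCCGGAAGcagattctctcg

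The NRF1 core was thus found in 2 of the 10 promoters, against 6.89% of 35116 promoters of the same length, and the ETS site in 3 of 10, against 8.52%. The matches in POLRMT began 19 (NRF1) and 93 (ETS) bases before the start, those in TFB2M 243 and 12 bases before it. The GC box (GGGCGG or CCGCCC) was in 5 of 10 promoters, against 42.6% of all. The TEAD site (GGAATG or CATTCC) and the E-box (CACGTG) were in 0 of the 10, with 11.9% and 6.34% of all promoters holding them. No match overlapped a match of another motif. A match is a description of the letters only. Of the 4 genes that hold the NRF1 or ETS letters, SLIRP and TFB2M were called lower after MGH-CP1, and POLRMT and TFB1M were not called. The promoters of PNPT1 and LRPPRC, which had the lowest fold changes of the 10, held neither the NRF1 nor the ETS letters. They are printed as far as they lie outside annotated exons (GENCODE release 29).
PNPT1, chr2:55693911-55694094, minus strand, 250 to 67 bases before the start: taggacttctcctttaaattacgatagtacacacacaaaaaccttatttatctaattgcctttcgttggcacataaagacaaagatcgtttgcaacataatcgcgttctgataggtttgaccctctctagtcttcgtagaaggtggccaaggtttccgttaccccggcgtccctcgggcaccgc
LRPPRC, chr2:43996006-43996239, minus strand, 250 to 17 bases before the start: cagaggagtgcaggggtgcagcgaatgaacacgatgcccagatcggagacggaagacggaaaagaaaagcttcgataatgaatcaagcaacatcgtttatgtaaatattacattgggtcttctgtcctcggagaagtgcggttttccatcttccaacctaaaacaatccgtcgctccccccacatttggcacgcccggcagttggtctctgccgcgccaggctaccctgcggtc

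After MGH-CP1, 6 of the 10 factors were called lower (PNPT1, LRPPRC, TFAM, TFB2M, SUPV3L1 and SLIRP) and 0 were called higher, at an adjusted p under 0.05 from limma on log2(FPKM + 1). Among all 12080 genes tested, 23.8% were called lower and 27.1% higher, and 50.8% were called in either direction, so calls were common in this comparison. The balance of calls turned with the scaling, to 3481 lower and 2815 higher under median-ratio scaling and 3221 lower and 2918 higher under quantile normalization, against 2869 lower and 3273 higher as reported; 7 factors were called lower under each of these scalings. In 7 of the 10 factors both MGH-CP1 libraries lay below both vehicle control libraries, against 37.4% of all genes tested, and in 1, POLRMT, both lay above, against 39.8%. The median log2 fold change was -0.21 over the 10 factors (SD 0.046 over the 4 treated-to-control pairings of libraries, which are not independent) and 0.014 over all genes tested. The summed level of the 10 factors was 177 and 175 FPKM in the vehicle control libraries and 139 and 141 FPKM after MGH-CP1. The plot of levels by library shows which factors separate the conditions and which do not.

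**Figure D1:**
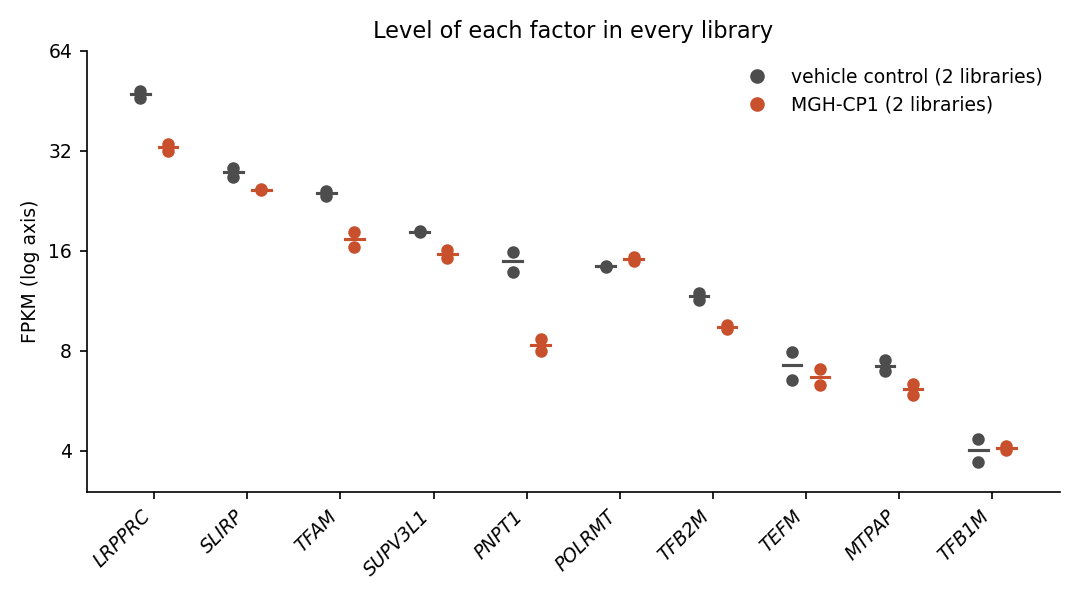
FPKM of the 10 factors (log axis) in each of the 4 libraries, ordered by their mean in vehicle control; points are libraries and short bars the mean of 2. LRPPRC, TFAM, PNPT1 and TFB2M lie clearly lower after MGH-CP1, from 48.4 and 46.3 to 31.9 and 33.6 FPKM for LRPPRC, whereas the points of TEFM and TFB1M overlap between the conditions.

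FPKM is scaled by the listed length of each gene, which allows a rough comparison of levels between the genes. Whether that length matches the transcripts expressed was not tested. In the vehicle control libraries LRPPRC was the most abundant factor (mean 47.4 FPKM), followed by SLIRP (27.6), TFAM (23.8), SUPV3L1 (18.2), PNPT1 (14.8), POLRMT (14.3), TFB2M (11.6), TEFM (7.22), MTPAP (7.21) and TFB1M (4.01). Neighbours in this order whose libraries overlapped were PNPT1 with POLRMT and TEFM with MTPAP. After MGH-CP1 PNPT1 stood in place 7, below POLRMT and TFB2M, and its libraries overlapped with neither of them. The other genes kept their order, with libraries that overlapped between SUPV3L1 and POLRMT and again between TEFM and MTPAP.

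Among the factors that start and carry out transcription, the polymerase itself was not called. POLRMT (ENSG00000099821, chr19:617223-633568 in the hg19 coordinates of the table, minus strand) had 14.3 and 14.4 FPKM in the vehicle control libraries and 14.9 and 15.3 FPKM after MGH-CP1. Both treated libraries were slightly above both controls. The log2 fold change was 0.072 (standard error 0.058, 95% interval -0.062 to 0.21, adjusted p = 0.332 from limma), with 1019 to 1393 fragments per library behind it.

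TFAM (ENSG00000108064, chr10:60144782-60158981, plus strand), the packaging protein and promoter factor, had 24.3 and 23.3 FPKM in the vehicle control libraries and 16.4 and 18.2 FPKM after MGH-CP1. The conditions did not overlap, and the gap between them was wider than the distance between replicates. The mean was 27.2% lower, which is a log2 fold change of -0.44 with a standard error of 0.066 (adjusted p = 0.00101 from limma); 8.23% of the genes tested had a lower log2 fold change. TFAM had 1599 to 3345 fragments per library.

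TFB2M (ENSG00000162851, chr1:246703862-246729626, minus strand), which works with POLRMT to open the promoter, had 11.3 and 11.96 FPKM in the vehicle control libraries and 9.26 and 9.54 FPKM after MGH-CP1. The mean was 19.3% lower, which is a log2 fold change of -0.28 with a standard error of 0.065 (adjusted p = 0.00802 from limma). The elongation factor TEFM (ENSG00000172171, chr17:29224354-29233838, minus strand) had 6.52 and 7.92 FPKM in the vehicle control libraries and 7.06 and 6.29 FPKM after MGH-CP1, so the conditions overlapped. Its log2 fold change of -0.096 (95% interval -0.33 to 0.13, adjusted p = 0.451 from limma) was smaller than its replicate spread, and it was 0.027 without vehicle control replicate 2. TEFM overlaps ADAP2 on the opposite strand over 477 bases, and that gene held 27 to 40 fragments per library.

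TFB1M, the sister gene of TFB2M that serves the ribosome (ENSG00000029639, chr6:155578643-155635627, minus strand), had 4.33 and 3.69 FPKM in the vehicle control libraries and 4.02 and 4.11 FPKM after MGH-CP1. Both treated libraries lay between the control libraries. The log2 fold change was 0.019 (95% interval -0.20 to 0.24, adjusted p = 0.880 from limma). It was -0.073 without vehicle control replicate 2, -0.025 under median-ratio scaling and -0.079 under quantile normalization. The cause of these changes of sign was not tested. TFB1M had only 103 to 157 fragments per library. On the opposite strand it overlaps TIAM2 over 215 bases and CLDN20 over 12536 bases. TIAM2 held 279 to 494 fragments per library and CLDN20 1 to 4.

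Of the factors that protect and tail mitochondrial mRNA, LRPPRC (ENSG00000138095, chr2:44113647-44223144, minus strand) had 48.4 and 46.3 FPKM in the vehicle control libraries and 31.9 and 33.6 FPKM after MGH-CP1. The mean was 30.8% lower and the log2 fold change -0.52 (standard error 0.054, adjusted p = 1.73e-04 from limma). With 3639 to 7812 fragments per library, LRPPRC was the most deeply covered of the 10, and 5.55% of the genes tested had a lower log2 fold change. Mutations of LRPPRC are known to cause a form of Leigh syndrome with loss of cytochrome c oxidase.

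SLIRP (ENSG00000119705, chr14:78174414-78227447, plus strand), the small RNA-binding partner of LRPPRC, had 26.7 and 28.4 FPKM in the vehicle control libraries and 24.4 and 24.5 FPKM after MGH-CP1. Both treated libraries were below both controls, although by little. The mean FPKM was 11.4% lower, and the log2 fold change of FPKM + 1 was -0.17 (standard error 0.055, adjusted p = 0.0349 from limma). This call was lost without vehicle control replicate 2 (log2 fold change -0.13, adjusted p = 0.161 from limma), without MGH-CP1 replicate 1 (adjusted p = 0.117 from limma) and without MGH-CP1 replicate 2 (adjusted p = 0.107 from limma). The listed span of SLIRP overlaps SNW1 on the opposite strand over 43506 bases; SNW1 held 1097 to 2083 fragments per library against 372 to 627 for SLIRP and was itself called lower (log2 fold change -0.26, adjusted p = 0.0217 from limma). The library protocol describes no step that marks the strand, so reads shared by the overlapping genes cannot be told apart.

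MTPAP (ENSG00000107951, chr10:30598730-30663377, minus strand), the mitochondrial poly(A) polymerase, had 6.94 and 7.48 FPKM in the vehicle control libraries and 5.89 and 6.35 FPKM after MGH-CP1. The treated libraries were below the controls, and the mean was 15.2% lower. The log2 fold change of -0.21 (standard error 0.078) missed the threshold with an adjusted p of 0.0568 from limma. It passed under 5 of the 14 alternative settings, among them median-ratio scaling (adjusted p = 0.0263 from limma) and limma voom on the recovered fragments (adjusted p = 0.0143), so MTPAP sits at the edge of the call.

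Of the RNA decay pair, PNPT1 (ENSG00000138035, chr2:55861400-55921045, minus strand) had 15.9 and 13.8 FPKM in the vehicle control libraries and 8.64 and 7.96 FPKM after MGH-CP1. It had the lowest log2 fold change of the 10 factors, at -0.77 (standard error 0.082, adjusted p = 2.00e-04 from limma), and its mean was 44.1% lower. Of the genes tested, 1.59% had a lower log2 fold change. PNPT1 is the exoribonuclease that degrades mitochondrial RNA, including antisense and double-stranded RNA. PNPT1 and LRPPRC were the 2 factors called with a log2 fold change at or below -0.5, which 6.16% of all genes tested reached.

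SUPV3L1 (ENSG00000156502, chr10:70939988-70968855, plus strand), the helicase that unwinds RNA for PNPT1, had 18.3 and 18.2 FPKM in the vehicle control libraries and 16.1 and 15.2 FPKM after MGH-CP1. The mean was 14.3% lower and the log2 fold change -0.21 (standard error 0.059, adjusted p = 0.0181 from limma). The call was lost without vehicle control replicate 1 (adjusted p = 0.0603 from limma) and without MGH-CP1 replicate 2 (log2 fold change -0.17, adjusted p = 0.101 from limma), while the direction stayed.

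**Figure D2:**
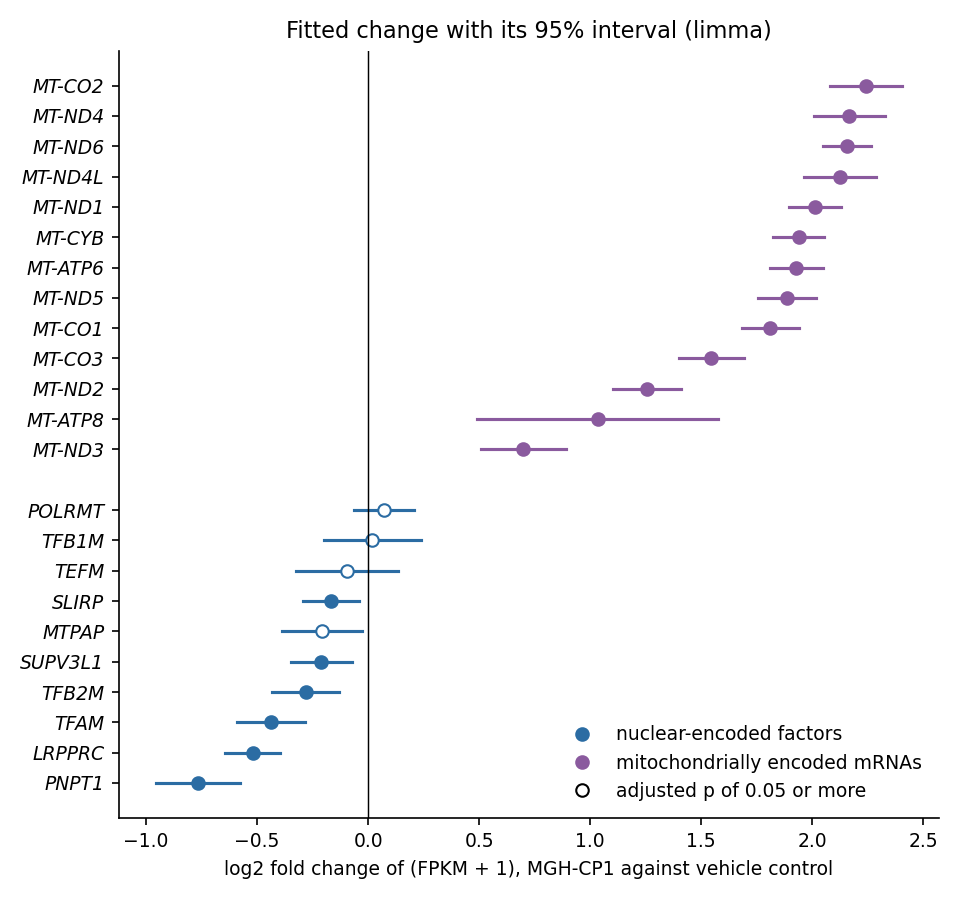
Log2 fold change of FPKM + 1 after MGH-CP1 against vehicle control, with 95% intervals from limma, for the 10 nuclear-encoded factors (blue) and the 13 mitochondrially encoded mRNAs (purple); open points have an adjusted p of 0.05 or more. The factors run from -0.77 for PNPT1 to 0.072 for POLRMT, and the mitochondrially encoded mRNAs from 0.70 for MT-ND3 to 2.24 for MT-CO2.

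Since the factors act in pairs and complexes, their levels were also set against each other within each library, as log2 ratios of FPKM. The RNA ratios between partners in a complex differed between the conditions in these libraries. The log2 ratio of LRPPRC to SLIRP was 0.86 and 0.70 under vehicle control and 0.39 and 0.46 after MGH-CP1. That of PNPT1 to SUPV3L1 was -0.21 and -0.40 under vehicle control and -0.90 and -0.93 after MGH-CP1. In both pairs the treated libraries lay below the controls without overlap.

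Relative to the polymerase, TFAM and TFB2M were lower after MGH-CP1. The log2 ratio of TFAM to POLRMT was 0.76 and 0.70 under vehicle control and 0.14 and 0.25 after MGH-CP1, and that of TFB2M to POLRMT was -0.34 and -0.26, then -0.69 and -0.69. TEFM showed no such separation, with a log2 ratio to POLRMT of -1.13 and -0.86 under vehicle control and -1.08 and -1.29 after MGH-CP1. The ratio of TFB1M to its sister TFB2M was higher after MGH-CP1, at -1.20 and -1.21 against -1.39 and -1.70 in the control libraries. For the 5 ratios without overlap the exact permutation test (two-sided) gave p = 0.333, the smallest that 2 libraries against 2 allow, and for TEFM to POLRMT it gave p = 0.667. No model was fitted to the 6 ratios.

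**Figure D3:**
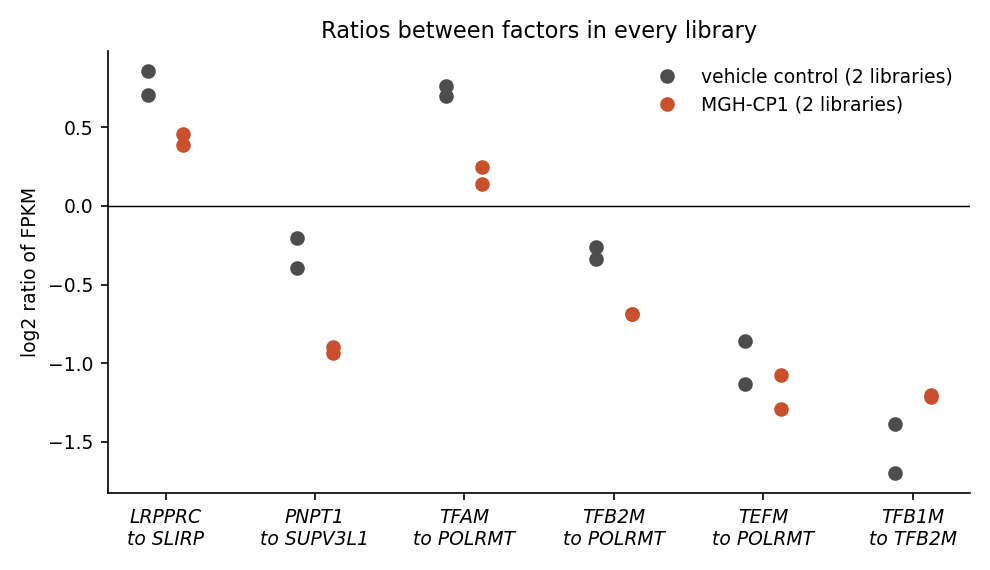
Log2 ratio of the FPKM of paired factors in each of the 4 libraries (points), with 0 marking equal levels. For 4 of the 6 pairs both MGH-CP1 libraries lie below both vehicle control libraries, for TFB1M to TFB2M both lie above, and for TEFM to POLRMT they overlap.

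The mitochondrially encoded mRNAs went the other way. Of the 15 mRNA and rRNA genes listed for the mitochondrial genome, the 13 mRNA genes were in the table and called higher in limma. Each had both MGH-CP1 libraries above both vehicle control libraries. The rRNA genes MT-RNR1 and MT-RNR2 were not found there under these names. The 12 mRNAs listed on the plus strand had log2 fold changes from 0.70 to 2.24, and MT-ND6, the mRNA encoded on the other strand, had 2.16. Its mean level was 365 ± 12.3 FPKM (SD, n = 2) in treated and 81.1 ± 0.567 FPKM (SD, n = 2) in control cells. Without strand in the libraries, reads of MT-ND6 and of RNA from the opposite strand cannot be told apart. MT-ATP8 had only 4 to 16 fragments per library, and its listed span overlaps that of MT-ATP6. The listed span of MT-ND4L likewise overlaps that of MT-ND4.

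Summed over the 13 mRNAs, the mitochondrially encoded level was 4828 and 4640 FPKM in the vehicle control libraries and 16531 and 16258 FPKM after MGH-CP1. Set against the summed level of the 10 factors, this gave 27.3 and 26.5 FPKM of mitochondrially encoded mRNA per FPKM of factor RNA in control libraries, and 119 and 115 in treated ones. The mean log2 ratio of the sums was higher by 2.13 after MGH-CP1 (p = 0.333 by the two-sided exact permutation test, its lower limit here). Most of this came from the mRNAs, whose rise was known beforehand. Their mean sum was 3.46 times that of the controls, and the mean sum of the factors 0.793 times. Among the 13 mRNAs the lowest log2 fold change, 0.70 for MT-ND3, lay above the highest of the 10 factors, 0.072 for POLRMT. In the same fit, then, 13 of 13 mitochondrially encoded mRNA genes and 0 of 10 factors were called higher, against 27.1% of all genes tested. The mRNAs are cut from long transcripts, so their calls are not separate events. Protein levels were not measured, and poly(A) selection means that the level of a mitochondrial mRNA and the length of its tail cannot be told apart. The 13 mitochondrially encoded mRNA genes held 0.447% and 0.418% of fragments in the vehicle control libraries and 1.57% and 1.53% after MGH-CP1. Leaving them out of the library totals could therefore move a fold change only slightly. The median log2 fold change of the 10 factors was then -0.19.

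**Figure D4:**
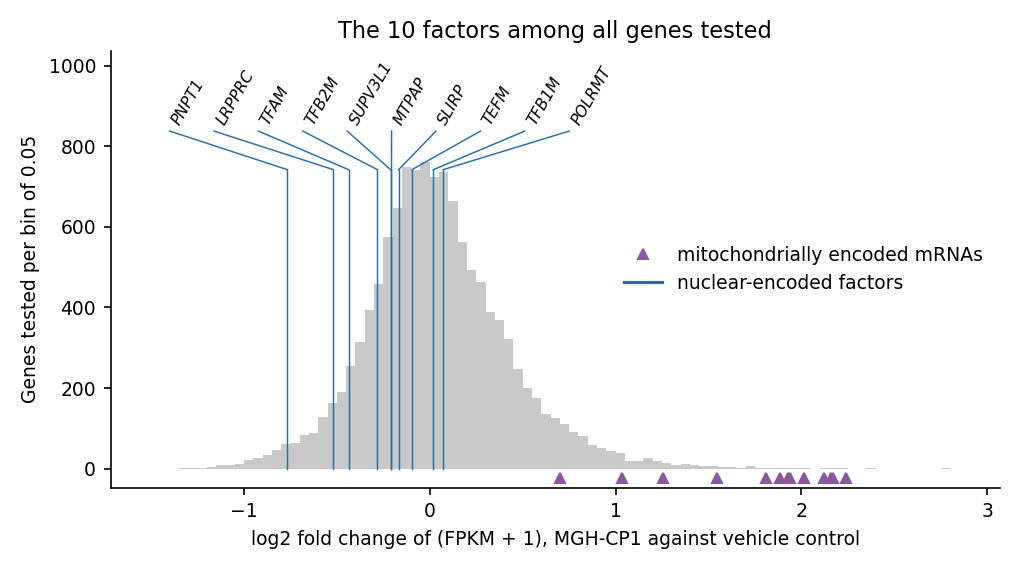
Histogram of the log2 fold changes of all 12080 genes tested, in bins of 0.05, with lines for the 10 factors and triangles for the 13 mitochondrially encoded mRNAs. The factors lie in the left side and centre of the distribution, down to PNPT1 at -0.77, and the triangles in the right tail.

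Other nuclear genes of mitochondrial gene expression, in 6 lists with 85 genes in all, were read in the same fit. Of the 81 that were tested, 28 were called lower and 9 higher, against 23.8% lower and 27.1% higher of all genes tested, and their median log2 fold change was -0.15. The lists were assembled from general knowledge.

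In the list of mitochondrial DNA replication and nucleoid factors, 8 of 14 genes were called lower and 2 higher, with a median log2 fold change of -0.24. The lowest value was that of DNA2 (-0.74, adjusted p = 1.28e-04 from limma), a nuclease and helicase that also works in the nucleus, followed by ATAD3A (-0.55, adjusted p = 2.99e-04 from limma), a membrane ATPase that binds nucleoids. POLG2, the accessory subunit of the mitochondrial DNA polymerase, was higher (0.49, adjusted p = 5.07e-04 from limma), as was the topoisomerase TOP1MT (0.20, adjusted p = 0.0393 from limma).

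The MTERF family and MTRES1 gave 1 gene lower and 1 higher of 5. MTERF3, a DNA- and RNA-binding member of the family listed as MTERFD1, fell by 0.55 on the log2 scale (adjusted p = 0.00390 from limma). MTRES1, listed as C6orf203, rose by 0.63 (adjusted p = 5.01e-04 from limma); it is known as a factor that restores mitochondrial transcription under stress. The other 3 members of the family did not pass the test.

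In the list of RNA cleavage, granule and turnover factors, 6 of the 16 genes tested were called lower and 1 higher, with a median log2 fold change of -0.19. PDE12, which removes poly(A) tails from mitochondrial RNA, fell by 0.36 on the log2 scale (adjusted p = 0.00109 from limma) and PTCD2 by 0.32 (adjusted p = 0.0243 from limma). FASTK, whose mitochondrial form binds MT-ND6 mRNA, rose by 0.41 (adjusted p = 3.66e-04 from limma). PTCD1 had a mean FPKM under 1 and was not tested. PRORP, listed as KIAA0391, has 2 overlapping rows, with at most 0.0212 and 0.0885 FPKM in a library; neither was tested, and how its reads were split between them is not known.

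Of the 22 rRNA and tRNA modification enzymes, 4 were called lower and 1 higher. The share called lower was 18.2%, below the 23.8% of all genes tested. NSUN2, an RNA methyltransferase that also acts outside mitochondria, fell by 0.40 on the log2 scale (adjusted p = 3.58e-04 from limma) and MRM2, listed as FTSJ2, by 0.25 (adjusted p = 0.00957 from limma), while the pseudouridine synthase TRUB2 rose by 0.27 (adjusted p = 0.00313 from limma). Of the 15 translation factors, 5 were lower and 3 higher. GUF1 (-0.41, adjusted p = 0.00140 from limma) and the elongation factor GFM1 (-0.41, adjusted p = 0.00213 from limma) had the lowest values, and the release factor MTRF1 (0.31, adjusted p = 0.0266 from limma) and the initiation factor MTIF3 (0.30, adjusted p = 0.0226 from limma) the highest.

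Among 9 nuclear regulators of mitochondrial biogenesis that were tested, 4 were called lower and 1 higher. The coactivator PPRC1 fell by 0.52 on the log2 scale (adjusted p = 5.39e-04 from limma) and NRF1, whose site was searched in the promoters above, by 0.39 (adjusted p = 0.00628 from limma). The orphan nuclear receptor gene ESRRA rose by 0.34 (adjusted p = 0.00720 from limma). The coactivator genes PPARGC1A and PPARGC1B had a mean FPKM under 1 and were not tested; their values are given after they were seen. PPARGC1A had 0.727 and 0.633 FPKM under vehicle control and 1.18 and 1.22 FPKM after MGH-CP1, from 102 to 136 fragments per library. PPARGC1B had 0.461 and 0.412 FPKM, then 0.242 and 0.210 FPKM, from 39 to 124 fragments. The conditions did not overlap for either gene, in opposite directions.

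**Figure D5:**
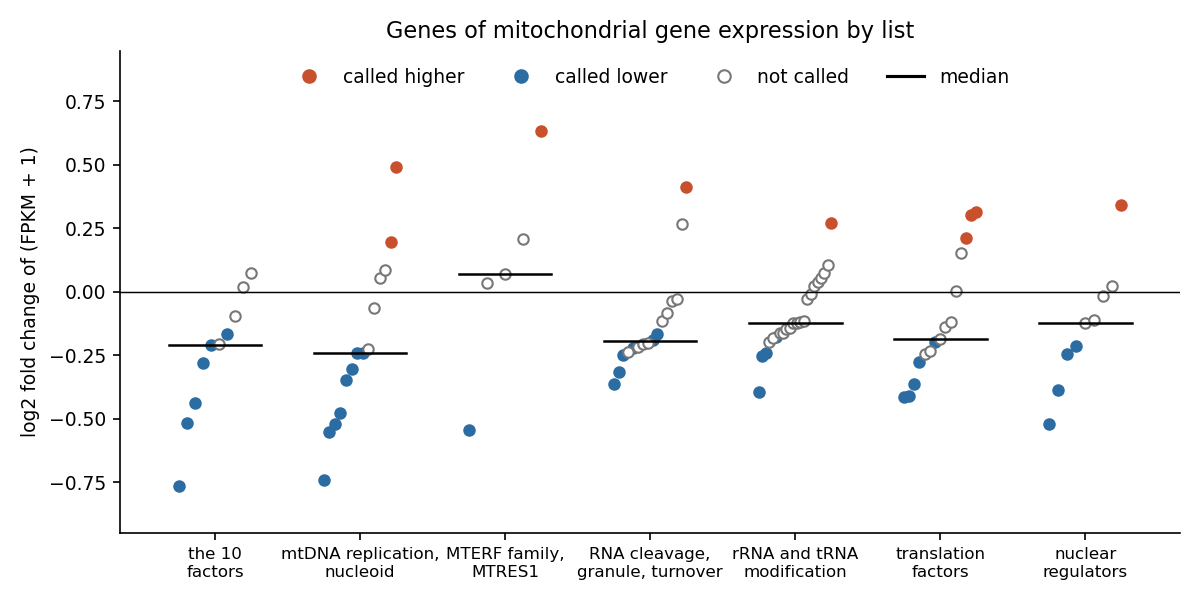
Log2 fold change of each tested gene after MGH-CP1, for the 10 factors and 6 lists of other nuclear genes of mitochondrial gene expression; filled points were called higher (red) or lower (blue), open points were not called, and black bars mark medians. Every list but that of the MTERF family and MTRES1 has a median below 0, from -0.24 for the replication and nucleoid list to -0.12, and that of the 10 factors is -0.21.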

How the data were processed

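The deposited table holds FPKM for 48162 genes, with gene lengths and coordinates. CASAVA 1.8, STAR and hg19 are named in the submitters' processing notes; the counting tool is not given in the sources used here. Dividing FPKM times length by the smallest step of a library gave whole fragments (100% of values, tolerance 0.01). Columns were matched to samples by condition and replicate number. The 12080 genes whose mean FPKM reached 1 were compared as log2(FPKM + 1), a scale that understates changes of low genes, with limma 3.58.1 in R 4.3.3 (eBayes with trend, 5.97 prior degrees of freedom, two-sided, Benjamini-Hochberg over all genes tested). The deposited unit is no count, so a count model was an alternative only. Of the steps, only the limma fit was tested on simulated data.

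The members and lists were chosen with earlier results of these data known. All members were named; of the other lists, up to 2 genes called with the largest rise and 2 with the largest fall, and genes under the filter by name only, except for values of PRORP, PPARGC1A and PPARGC1B, added after they were seen. KIAA0391 had 2 rows, of which the first was read. Alternatives were other pseudocounts, filters, scalings and variance models, a replicate block, voom on recovered fragments and leaving out each library.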

Additional observations from a re-analysis of the deposited data

How the results depend on the processing

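The 6 factors called lower became 0 when limma shared no variance between genes, a setting under which 13 genes were called of 12080, against 6142 in the reported fit, and under which 5 of the 10 factors had an unadjusted p under 0.05; sharing the variance was the only thing changed. Across the other settings 4 to 7 factors were called lower and 0 higher, while the share of all genes called lower ran from 7.41% (no filter on low values, 4 factors) to 30.4% (mean FPKM of at least 5, 7 of the 9 factors tested). PNPT1, LRPPRC, TFAM and TFB2M kept their call under 13 of 14 settings each, all but that setting. SLIRP kept it under 7 and SUPV3L1 under 10. The median log2 fold change of the factors was -0.26 with median-ratio scaling. With each library left out in turn, which leaves a condition with 1 library that is assumed to vary like the others, 4 to 5 factors were called lower, 4641 to 5540 genes were called and the median stayed between -0.24 and -0.19. The fold change of TFB1M reversed with median-ratio scaling (-0.025), with quantile normalization (-0.079) and without vehicle control replicate 2 (-0.073), and that of TEFM without the same library (0.027). The scalings moved the median of all genes from 0.014 to -0.034 and -0.027, and the reported value of TFB1M was 0.019. The cause of the reversals was not tested. With each library left out in turn, TFB1M ran from -0.073 to 0.11 and TEFM from -0.22 to 0.027. The change in the log2 ratio of summed mitochondrially encoded mRNA to summed factors stayed between 2.01 and 2.15 over 6 settings. Most of this change came from the rise of the mRNAs. Of these settings, library totals without mitochondrially encoded genes could not change a ratio taken within a library. Same-numbered libraries did not deviate together (correlation 0.0777 over genes tested), so the numbers were not taken as pairs; with the replicate block 6518 genes and 7 factors were called, the added factor being MTPAP (adjusted p = 0.0484 from limma). TFB1M had the fewest fragments, 103 in each MGH-CP1 library, but TEFM had the larger standard error (0.0999 against 0.0947).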
